A study of Mus musculus with 50 samples.

Results

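The transcripts of the mitochondrial genome were taken as all genes whose name begins with "mt-" and whose count was above 0 in at least 5 libraries. This gave 37 of the 35717 genes in the table, namely 13 mRNAs, 2 ribosomal RNAs (rRNAs) and 22 transfer RNAs (tRNAs). All 37 were above 0 in each of the 50 libraries, and all 37 passed the filter on low values used for testing, which kept 11628 genes. Each library was made from left ventricle of a mouse on a C57BL/6J background, 40 weeks old at the start of infusion. The mice were LARP6 transgenic (Tg) or wild-type (WT) littermates. Each was infused for 21 days with saline, or with 1000 ng of angiotensin II (Ang II) per kg each minute. There were 11 WT saline libraries (5 female, 6 male), 14 WT Ang II (7 female, 7 male), 12 Tg saline (6 female, 6 male) and 13 Tg Ang II (7 female, 6 male). The title of the series describes the overexpression of LARP6, an RNA-binding protein known for its binding to collagen mRNAs, as specific to cardiomyocytes. The promoter that drives it is not given in the sources used here.

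The mitochondrial genome is a small circle of DNA kept in many copies in each cell. Both of its strands are transcribed into long precursors, which are cut mainly at the tRNAs that lie between the other genes. Its mRNAs encode core subunits of respiratory complexes I, III and IV and of ATP synthase, its rRNAs form the mitochondrial ribosome, and its tRNAs serve only that ribosome. All other proteins that copy, transcribe, process and translate it come from nuclear genes. Heart muscle cells are rich in mitochondria, and in bulk ventricle fewer cells of a type and less RNA per cell cannot be told apart.

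Total counts per library ran from 53877439 to 91579342. Larp6 read 443 to 1627 scaled FPKM (a level per transcript length and library depth, scaled between libraries) in Tg saline and 587 to 1177 in Tg Ang II. It read 5.59 to 63.5 in WT saline and 19.6 to 62.8 in 13 of the 14 WT Ang II libraries. The remaining library labelled WT Ang II (male replicate 5) read 1001, so its Larp6 goes against its label. Its column heading carries the letters of the transgenic group. The heading of the library labelled Tg Ang II male replicate 6 carries those of the wild type, although its Larp6, at 1117, goes with its label. Results for the members, shares and ratios were recomputed without both. Those for the nuclear gene lists and the cell type markers were not, so they keep both libraries as labelled. The labels do not say in words that each library is a separate animal, so p-values measure the spread between these libraries.

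Between 28.1% and 38.8% of a library's counts fell on the mitochondrial genome. Within that portion, mRNAs gave 96.6% to 98.3% of the counts over the 50 libraries, rRNAs gave 1.31% to 2.78% and tRNAs gave 0.441% to 0.602%. RNA was selected for poly(A) tails before sequencing. Most mitochondrial mRNAs carry short tails, whereas the rRNAs, the tRNAs and mt-Nd6 carry little or no tail, so the levels of the last 3 kinds rest on RNA that escaped or passed the selection and are not the tissue's own proportions. Of the 20 genes with the highest mean count, 10 were members.

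mt-Co1, the catalytic subunit of cytochrome c oxidase (complex IV), had a mean count of 7864710 and the highest FPKM of all genes in 50 of 50 libraries. mt-Cytb, the cytochrome b of complex III, was second in 50 of 50, with a mean count of 2787220. At the other end of the mRNAs, mt-Nd3, a small membrane subunit of complex I, averaged 60112 counts. The tRNAs ran from 50.9 counts for mt-Tf (phenylalanine) to 31365 for mt-Te (glutamate). tRNAs are shorter than a sequenced fragment, so their FPKM is used here to compare libraries and not to rank genes.

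By strand, 28 members are encoded on the plus strand of the reference and 9 on the minus strand: mt-Nd6, a membrane subunit of complex I, and 8 tRNAs. Minus-strand members gave 2.16% to 2.95% of the mitochondrial counts. Although they number 8 of 22, the minus-strand tRNAs gave 71.9% to 77.5% of the tRNA counts. The libraries were prepared with a protocol that keeps strand, but the strand setting of the counting is not given in the sources used here. Reads from a minus-strand member, mt-Nd6 included, and from a long transcript of the other strand that runs through it therefore cannot be told apart. The FPKM of mt-Nd6 stood at 0.796 to 1.28 times that of mt-Nd5, its plus-strand neighbour, over the 50 libraries.

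The genes are packed with little space between them, and 9 pairs overlap, 6 on the same strand and 3 on opposite strands. The overlap of mt-Atp8 and mt-Atp6, a pair of ATP synthase subunits read from a single mRNA, spans 43 bases of the mitochondrial chromosome (MT) of GRCm38, from 7927 to 7969 on the plus strand. It is shown because reads inside it belong to both genes. Capitals mark the start codon of mt-Atp6 and the stop codon of mt-Atp8 (sequences here and later are from the GENCODE M21 transcripts).
mt-Atp8 and mt-Atp6 overlap: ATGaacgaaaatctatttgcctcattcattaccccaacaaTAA

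In 3 of the 13 mRNAs, mt-Co3, mt-Nd4 and mt-Cytb, the annotated gene ends in a single T, and the stop codon is completed only when a poly(A) tail is added. The other 10 end in a complete stop codon. The last 30 bases are shown for mt-Co1, which has a complete stop, and for the 3 with a partial stop. Capitals mark the stop bases held in the genome, and all lie on the plus strand: mt-Co1 from 5328 to 6872, mt-Co3 from 8607 to 9390, mt-Nd4 from 10167 to 11544 and mt-Cytb from 14145 to 15288.
mt-Co1: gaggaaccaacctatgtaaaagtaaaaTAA
mt-Co3: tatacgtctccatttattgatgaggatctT
mt-Nd4: gtccaaaactaattacaggcctgacaataT
mt-Cytb: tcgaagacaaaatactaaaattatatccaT

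Counts of 7 mRNAs are uncertain because chromosome 1 carries near-identical copies of them. Between 24611535 and 24616197 (GRCm38, minus strand), 7 annotated nuclear copies match mt-Co1, mt-Co2, mt-Atp6, mt-Co3, mt-Nd3, mt-Nd4l and mt-Nd4. Over 4137 aligned bases they differ from the mitochondrial genes at 1, A1066T in Gm29216, counted from the first base of mt-Co1 with the mitochondrial base first. The copies of mt-Co2, mt-Atp6, mt-Co3, mt-Nd3 and mt-Nd4l, which cover nearly the whole gene, held 88.1% to 105% of the member's own count in every library. Gm28439, which matches part of mt-Nd4, held 30.6% to 37.9% of that member's count, and Gm29216 held 5.51% to 13.5% of that of mt-Co1. Together the copies took 6.73% to 9.92% of all library counts. How reads that match both places were assigned is not given in the sources used here, so the levels of these 7 members and their rank among mRNAs are uncertain, although mt-Co1 rests mostly on sequence outside its copy. Under saline, the log2 difference between Tg and WT for the 7 copies ran from -0.26 to 0.04.

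**Figure D1:**
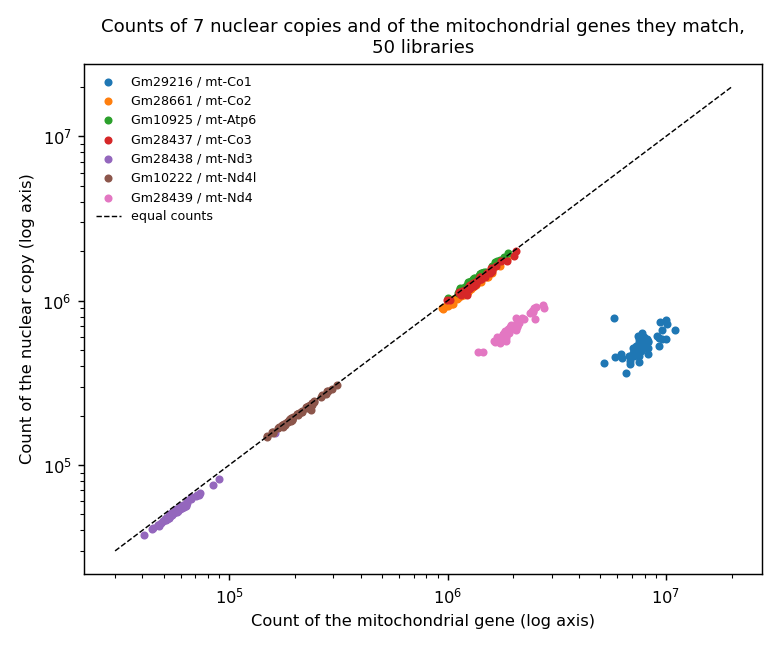
Counts of each of the 7 nuclear copies on chromosome 1 (y axis, log scale) against the count of the mitochondrial gene it matches (x axis, log scale), with 1 point per library and a dashed line at equal counts. The 5 nearly full-length copies lie along the line at 88.1% to 105% of the member's count, and the partial copies of mt-Nd4 and mt-Co1 lie below it.

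The share of library counts from the mitochondrial genome was lower in Tg than in WT hearts. In WT saline it ran from 32.6% through a median of 36.0% to 38.8%, with a mean of 36.1% ± 2.07 (SD, n = 11). In Tg saline it ran from 28.1% through 32.1% to 35.0%, with a mean of 32.1% ± 2.16 (SD, n = 12). The difference was -4.08 percentage points (2-sided permutation test, p = 0.00014, adjusted p = 0.00238 over 68 tests of shares and ratios), and the ranges overlapped.

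Under Ang II the share ran from 30.1% through 33.6% to 38.8% in WT, with a mean of 33.8% ± 2.21 (SD, n = 14). In Tg Ang II it ran from 29.1% through 31.4% to 33.3%, with a mean of 31.3% ± 1.35 (SD, n = 13). The Tg and WT means differed by -2.47 points (permutation test, p = 0.0014, adjusted p = 0.0159). With FPKM in place of counts this difference was -1.77 points and did not pass (permutation test, adjusted p = 0.0808).

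Ang II against saline gave -2.38 points in WT, which did not pass (permutation test, p = 0.0127, adjusted p = 0.0666). With the counts of the nuclear copies added to those of the members it was -2.96 points and passed (permutation test, adjusted p = 0.0462). It also passed when any of 4 libraries was left out: WT Ang II male replicate 7 (-2.77), WT saline female replicate 5 (-2.73), WT Ang II female replicate 6 (-2.59) or WT saline female replicate 3 (-2.58). In Tg the Ang II difference was -0.770 points (permutation test, adjusted p = 0.458).

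**Figure D2:**
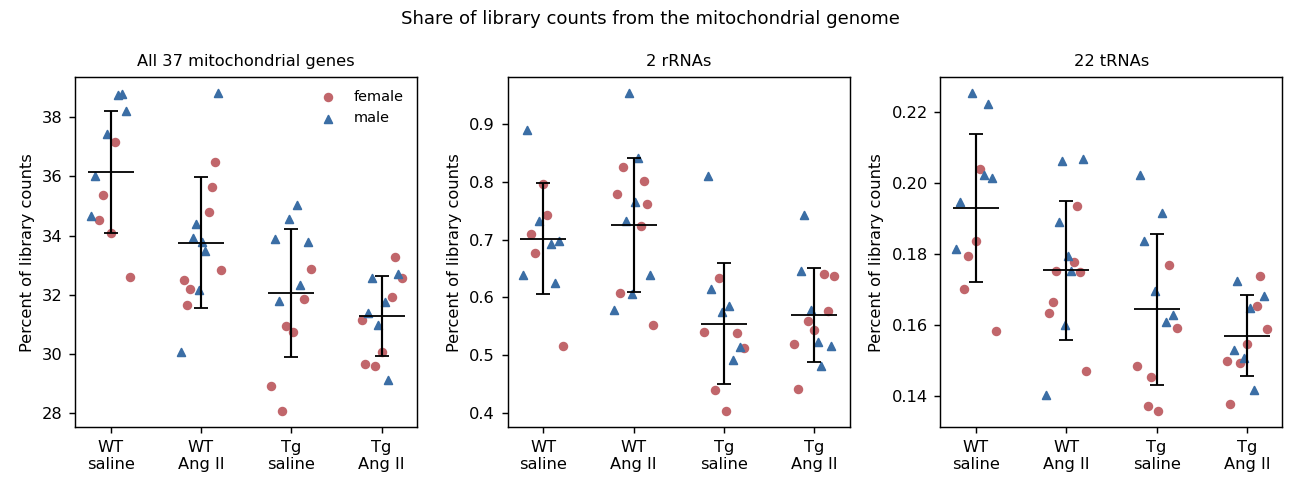
Percent of library counts from all 37 mitochondrial genes, from the rRNAs and from the tRNAs (y axes), by genotype and treatment, with 1 point per library (circles female, triangles male) and bars at the mean ± SD. The mean mitochondrial share is 36.1% in WT saline, 33.8% in WT Ang II, 32.1% in Tg saline and 31.3% in Tg Ang II, and the groups overlap.

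The next comparisons ask how each member's level, set against the other genes of the library, differed between groups. Under saline, 27 of the 37 members were lower in Tg than in WT and 0 were higher, where 20.2% of the 11628 genes tested were lower, 20.4% higher and 40.6% called in either direction (edgeR's quasi-likelihood test, adjusted p under 0.05). The members' median log2 difference was -0.285, against 4e-04 over all genes tested. The calls took in 11 of 13 mRNAs, 2 of 2 rRNAs, 14 of 22 tRNAs and, by strand, 9 of 9 minus-strand and 18 of 28 plus-strand members. For all 37 the ranges of Tg and WT overlapped in scaled FPKM. How often the ranges overlapped over all genes tested was not counted. Scaling by library size alone moved the median of all genes to 0.136, and 18 members then passed. With the FPKM values of all libraries forced to a common distribution (quantile normalization), 12 passed, all lower, and the differences of mt-Co1 and mt-Cytb are 0 by construction, since these rank first and second in every library. The other mRNAs except mt-Nd3 (rank 26) held ranks 4 to 18 by mean FPKM, above Actc1 at 21. That setting therefore largely removes a fall that these mRNAs share, and it cannot decide whether they fell together.

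The rRNAs had the largest differences outside the tRNAs. mt-Rnr1, the RNA of the small subunit of the mitochondrial ribosome (MT from 70 to 1024, plus strand), read 1276 through a median of 1754 to 2202 scaled FPKM in WT saline. In Tg saline it read 807 through 1180 to 1811. The Tg range reached lower, and its median lay below the lowest WT library. Its log2 difference was -0.57 ± 0.10 (SE; edgeR, adjusted p = 1.3e-05).

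mt-Rnr2, the RNA of the large subunit, read 2257 through 3461 to 4230 scaled FPKM in WT saline and 1718 through 2433 to 3718 in Tg saline. The Tg median lay below that of WT, and the ranges overlapped. Its log2 difference was -0.45 ± 0.10 (SE; edgeR, adjusted p = 0.00043).

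Of the 7 complex I mRNAs, 5 were lower. mt-Nd1, a core membrane subunit, had the smallest p of all members: it read 25148 through 26871 to 31970 scaled FPKM in WT saline and 16785 through 20693 to 26064 in Tg saline. The ranges met only between 25148 and 26064. The log2 difference was -0.42 ± 0.07 (SE; edgeR, adjusted p = 1.3e-06). mt-Nd6, the minus-strand mRNA, read 11358 through 15290 to 18931 scaled FPKM in WT and 8012 through 11160 to 13311 in Tg, a log2 difference of -0.40 ± 0.09 (SE; adjusted p = 0.00018). Its reads cannot be told from those of a plus-strand transcript that runs through it. mt-Nd5 (-0.35), mt-Nd2 (-0.29) and mt-Nd4 (-0.26) were also lower on the log2 scale, whereas mt-Nd4l, at -0.14, did not pass (edgeR, adjusted p = 0.23).

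mt-Nd3 was at 0.02 (edgeR, adjusted p = 0.91), and this value rests on a single library. It read 1987 through 2575 to 3007 scaled FPKM in WT saline and 1689 through 2125 to 8437 in Tg saline, where the highest value, from Tg saline male replicate 6, was 4.02 times the median of the other 11. The next highest mt-Nd3 of all 50 libraries was 3007. Without that library the log2 difference was -0.23 (edgeR, adjusted p = 0.0031), and in females alone it was -0.29 (adjusted p = 0.014).

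That library also stood apart in other transcripts. Against the median of the other Tg saline libraries it read 2.80 times as much mt-Tg, the glycine tRNA next to mt-Nd3, and 1.62 times as much mt-Co2, but 0.514 times as much mt-Th and 0.475 times as much mt-Ts2. Its summed nuclear complex IV subunits read 5551 scaled FPKM, where the other 11 read 1557 to 2206. What sets it apart was not tested.

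In complexes III and IV and ATP synthase all 6 mRNAs were lower. mt-Co1 read 66605 through 77894 to 88092 scaled FPKM in WT saline and 50491 through 61802 to 71439 in Tg saline. Its Tg median lay below the lowest WT library, and its log2 difference was -0.34 ± 0.06 (SE; edgeR, adjusted p = 4.2e-06). mt-Co3 (-0.26) and mt-Co2 (-0.25), the other core subunits of complex IV, and the ATP synthase subunits mt-Atp6 (-0.22) and mt-Atp8 (-0.21) were lower by less. mt-Cytb had the smallest difference of the mRNAs that passed and read 31919 through 34523 to 44255 scaled FPKM in WT and 24702 through 30990 to 39888 in Tg, a log2 difference of -0.20 ± 0.06 (SE; edgeR, adjusted p = 0.013). mt-Cytb did not pass with scaling by library size alone, where it was at -0.06.

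**Figure D3:**
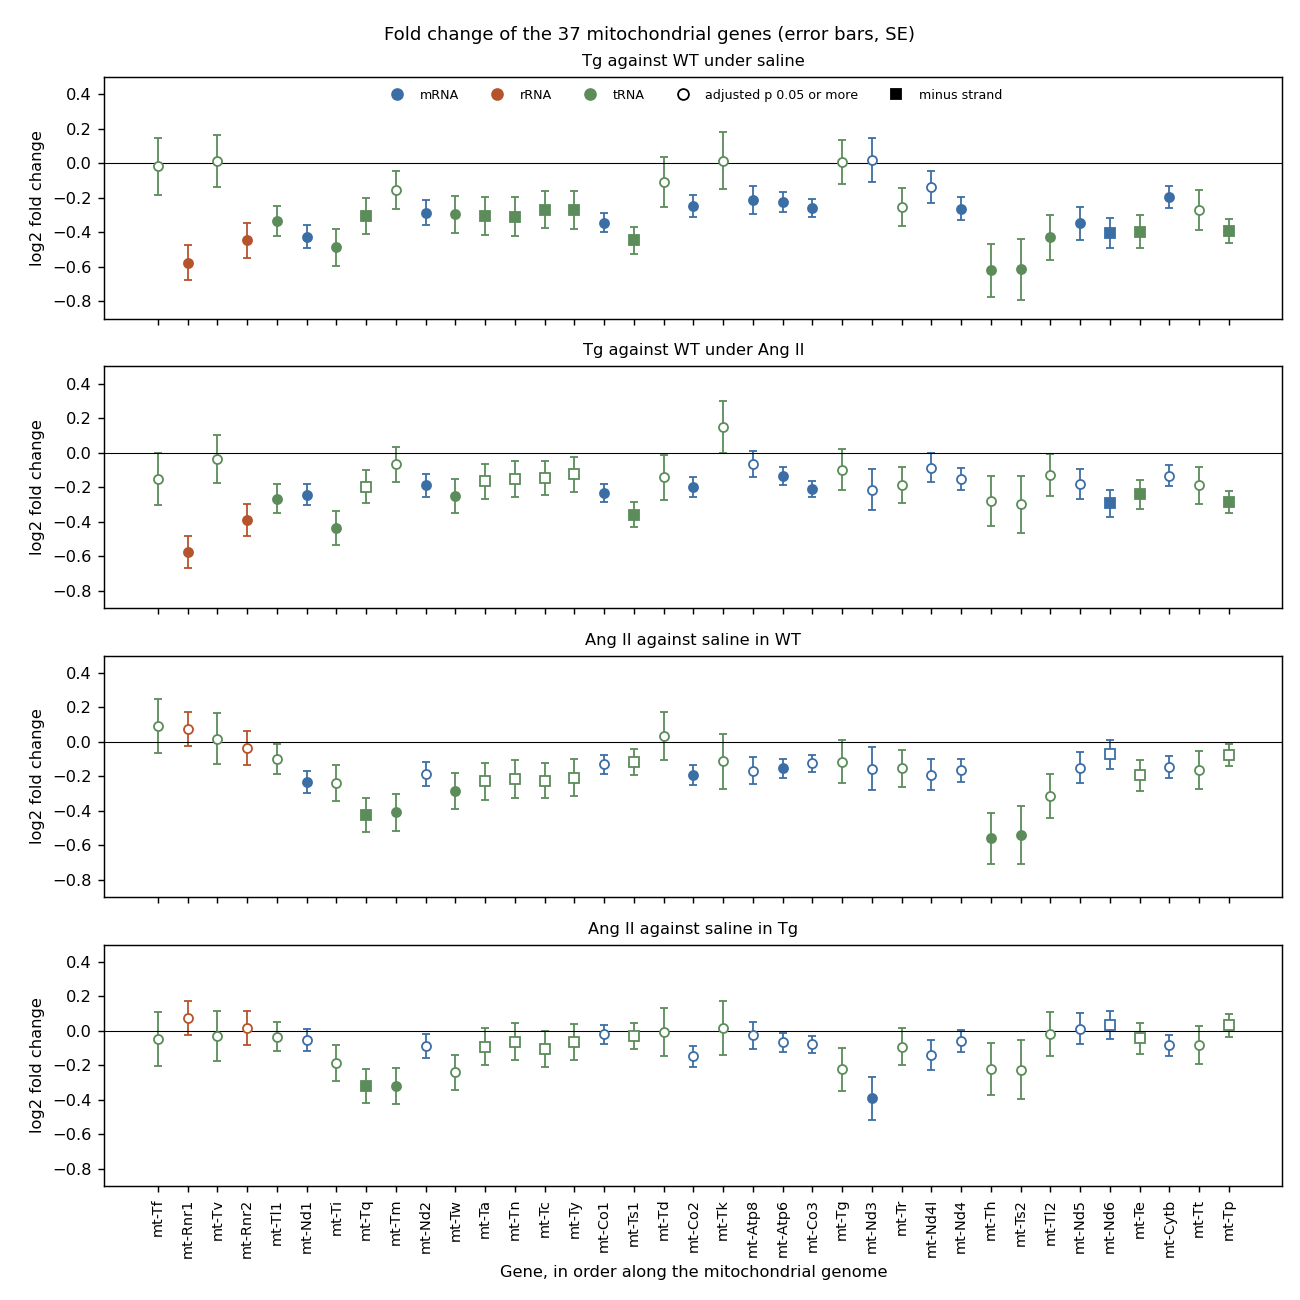
Log2 difference ± SE (y axes) of the 37 members in genome order (x axis) for 4 comparisons, with filled points for members that passed (edgeR, adjusted p under 0.05) and squares for the minus strand. Under saline 27 members were lower in Tg and 0 higher, and under Ang II 15 were lower and 0 higher, whereas Ang II against saline gave 8 lower in WT and 3 lower in Tg.

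Among the tRNAs, all 8 on the minus strand were lower in Tg under saline, by log2 differences of -0.45 for mt-Ts1 (serine), -0.40 for mt-Te (glutamate), -0.39 for mt-Tp (proline), -0.31 for mt-Tq (glutamine), -0.31 for mt-Tn (asparagine), -0.30 for mt-Ta (alanine), -0.27 for mt-Tc (cysteine) and -0.27 for mt-Ty (tyrosine). mt-Ta, mt-Tn, mt-Tc and mt-Ty lie close together, from 5018 to 5326, and mt-Te adjoins mt-Nd6, so the 8 are not independent readings. Depth also differed by strand, with a median mean count of 5934 for minus-strand tRNAs and 319 for plus-strand ones. Of the 14 on the plus strand, 6 were lower, and they included the 3 that lie side by side between mt-Nd4 and mt-Nd5. This run is shown because its members had 3 of the larger tRNA differences; capitals mark the anticodon, the triplet that pairs with the codon. All 3 are on the plus strand of MT: mt-Th (histidine) from 11546 to 11612, mt-Ts2 (serine) from 11613 to 11671 and mt-Tl2 (leucine) from 11671 to 11741.
mt-Th: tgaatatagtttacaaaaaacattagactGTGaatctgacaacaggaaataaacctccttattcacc
mt-Ts2: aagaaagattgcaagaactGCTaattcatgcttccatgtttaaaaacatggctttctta
mt-Tl2: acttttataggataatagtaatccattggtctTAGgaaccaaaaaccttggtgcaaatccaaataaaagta

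mt-Th read 24.7 through 45.9 to 75.2 scaled FPKM in WT saline and 15.96 through 29.6 to 43.7 in Tg saline. Its counts were low, 60 to 346 per library, and its ranges overlapped, with the Tg median below that of WT. Its log2 difference was -0.62 ± 0.16 (SE; edgeR, adjusted p = 0.0012). For its neighbours mt-Ts2 and mt-Tl2 the log2 differences were -0.61 ± 0.18 and -0.43 ± 0.13 (SE; adjusted p = 0.0046 and 0.0078). The 3 adjoin each other and mt-Nd4, so they are not independent readings.

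Also lower on the plus strand were mt-Ti (isoleucine) at -0.49, mt-Tl1 (leucine) at -0.33 and mt-Tw (tryptophan) at -0.29. mt-Tf, mt-Tv, mt-Tm, mt-Td, mt-Tk, mt-Tg, mt-Tr and mt-Tt did not pass. mt-Tf, mt-Tv, mt-Tk and mt-Tg lay within 0.02 of 0 on the log2 scale, with SEs of 0.13 to 0.16. Within groups, plus-strand tRNAs varied most, with SDs of 0.219 to 0.445 in log2 scaled FPKM, against 0.167 to 0.284 for minus-strand tRNAs and 0.117 to 0.291 for mRNAs.

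**Figure D4:**
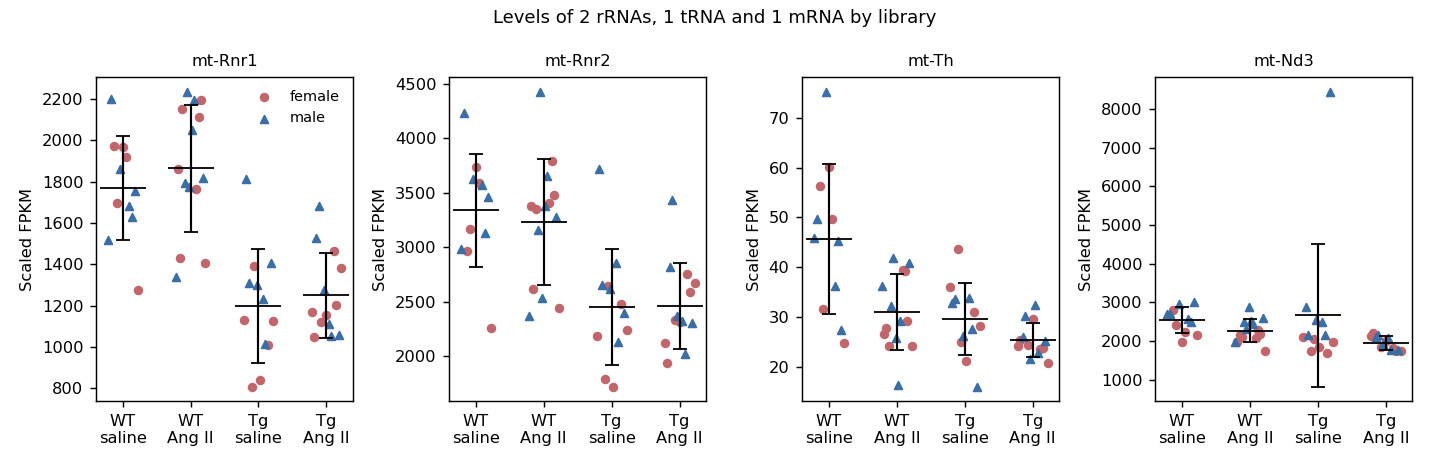
Scaled FPKM (y axes) of mt-Rnr1, mt-Rnr2, mt-Th and mt-Nd3 in each library (points), by genotype and treatment, with bars at the mean ± SD. mt-Rnr1 has medians of 1754 and 1840 in the WT groups and of 1180 and 1167 in the Tg groups, and the single mt-Nd3 value of 8437 is the Tg saline male replicate 6.

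Under Ang II, 15 of the 37 were lower in Tg than in WT and 0 were higher, beside 16.4% of all genes lower, 16.4% higher and 32.8% in either direction. The members' median was -0.19, against -0.0082 over all genes. With quantile normalization 4 members passed. mt-Rnr1 read 1338 through 1840 to 2235 scaled FPKM in WT Ang II and 1046 through 1167 to 1683 in Tg Ang II. Its Tg median lay below the lowest WT library, and its log2 difference was -0.58 ± 0.09 (SE; edgeR, adjusted p = 5.4e-06). mt-Rnr2 gave -0.39 ± 0.09 (SE; adjusted p = 0.0010).

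The mRNAs lower in Tg under Ang II were mt-Nd6 (-0.30), mt-Nd1 (-0.25), mt-Co1 (-0.23), mt-Co3 (-0.21), mt-Co2 (-0.20), mt-Nd2 (-0.19) and mt-Atp6 (-0.14), on the log2 scale. Those that did not pass were mt-Nd3 (-0.21), mt-Nd5 (-0.18), mt-Nd4 (-0.15), mt-Cytb (-0.13), mt-Nd4l (-0.09) and mt-Atp8 (-0.07). Without Tg saline male replicate 6, mt-Nd3 was at -0.21 and passed (edgeR, adjusted p = 0.0022). The 6 tRNAs that passed were mt-Ti, mt-Ts1, mt-Tp, mt-Tl1, mt-Tw and mt-Te, from -0.44 to -0.24. The run of mt-Th, mt-Ts2 and mt-Tl2 did not pass (edgeR, adjusted p = 0.13, 0.16 and 0.44).

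The rRNAs were lower relative to the mitochondrial mRNAs in Tg Ang II than in WT Ang II. As a percent of mRNA counts the rRNAs stood at 1.68 through 2.18 to 2.87 in WT Ang II and at 1.51 through 1.85 to 2.35 in Tg Ang II. The mean log2 ratio differed by -0.24 (permutation test, adjusted p = 0.0338). Without the libraries whose headings go against their labels it differed by -0.22 and did not pass (permutation test, adjusted p = 0.0717). Under saline the difference was -0.18 and did not pass (permutation test, adjusted p = 0.165). Neither the ratio of tRNA to mRNA counts nor that of mt-Nd6 to the 12 plus-strand mRNAs passed in any of the 4 comparisons.

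In WT hearts, 8 of the 37 members fell with Ang II and 0 rose, where 8.87% of all genes fell, 9.71% rose and 18.6% changed in either direction. The median was -0.16, against -0.0012 over all genes. The WT saline libraries are the reference here and also in the genotype comparison under saline, so the 2 sets of calls share them. Those that fell were mt-Nd1 (-0.23), mt-Co2 (-0.19) and mt-Atp6 (-0.15) among mRNAs and mt-Tq, mt-Tm, mt-Tw, mt-Th and mt-Ts2 among tRNAs, and neither rRNA passed (mt-Rnr1 0.08, mt-Rnr2 -0.04). The count moved widely with single libraries: 18 passed without WT Ang II male replicate 7 and 5 without WT saline female replicate 3. In females alone 0 passed and in males alone 2 passed.

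mt-Tq, the glutamine tRNA of the minus strand, read 751 through 1001 to 1225 scaled FPKM in WT saline and 486 through 696 to 1094 in WT Ang II. The Ang II median lay below the lowest saline library, and the log2 difference was -0.42 ± 0.10 (SE; edgeR, adjusted p = 0.0018). mt-Tm, the methionine tRNA beside it on the plus strand, read 1160 through 1409 to 2168 scaled FPKM in WT saline and 799 through 1101 to 1884 in WT Ang II, a log2 difference of -0.41 ± 0.11 (SE; adjusted p = 0.0047). mt-Th, whose saline values are given with its sequence, read 16.3 through 29.2 to 41.8 in WT Ang II, a log2 difference of -0.56 ± 0.15 (SE; adjusted p = 0.0061).

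mt-Tq and mt-Tm were lower after Ang II in both genotypes. The comparisons have no library in common but come from the shared fit, and the genes lie side by side, so these are not independent readings. mt-Tq lies at MT from 3772 to 3842 on the minus strand and mt-Tm from 3845 to 3913 on the plus strand, so they point away from each other, and mt-Tq overlaps the end of mt-Ti by 3 bases. Each is printed from its own 5′ end, with the anticodon in capitals.
mt-Tq: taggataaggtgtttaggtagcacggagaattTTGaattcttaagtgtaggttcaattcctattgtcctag
mt-Tm: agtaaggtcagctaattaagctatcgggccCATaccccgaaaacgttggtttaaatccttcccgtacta

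In Tg hearts, 3 of 37 members fell with Ang II, mt-Tq, mt-Tm and mt-Nd3, and 0 rose, where 4.04% of all genes fell, 4.88% rose and 8.93% changed in either direction. mt-Tq read 557 through 729 to 1077 scaled FPKM in Tg saline and 465 through 641 to 735 in Tg Ang II, with a log2 difference of -0.32 ± 0.10 (SE; edgeR, adjusted p = 0.034). mt-Tm was at -0.32 ± 0.11 (SE; adjusted p = 0.047). Of the 50 libraries, 25 are WT and enter this comparison only through the shared fit. With 1 library left out at a time, the count of 3 was kept in 29 of 50 runs and was 2 in 9, 1 in 8 and 0 in 4. It was 0 without Tg Ang II female replicate 3, Tg Ang II male replicate 5, Tg saline male replicate 6 or Tg saline female replicate 6. It was 1 without Tg Ang II female replicates 1, 2 or 7, Tg Ang II male replicates 3 or 6, Tg saline male replicates 1 or 4 or Tg saline female replicate 5, and also without the pair of libraries whose headings go against their labels. With a filter on counts in place of FPKM it was 0. The mt-Nd3 difference of -0.39 became -0.14 without Tg saline male replicate 6 (edgeR, adjusted p = 0.13).

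The Ang II responses of the genotypes were compared directly by an interaction term. It called 0 of the 37 members (edgeR, where 0.043% of all genes were called, 0.0344% lower and 0.0086% higher), and 0 had an unadjusted p under 0.05. DESeq2 and limma also called 0. The point estimates ran from -0.24 for mt-Nd3 to 0.34 for mt-Th on the log2 scale, with SEs of 0.07 to 0.24.

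The make-up of the mitochondrial mRNA pool is set by ratios within a library and does not depend on the scaling between libraries. mt-Nd1 made up 7.75% ± 0.21 of mRNA counts in WT saline (SD, n = 11) and 7.10% ± 0.36 in Tg saline (SD, n = 12; permutation test, adjusted p = 0.00204). In WT Ang II it made up 7.32% ± 0.33 (SD, n = 14), below WT saline by 0.43 points (permutation test, adjusted p = 0.0159).

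mt-Cytb moved the other way within the pool, with 12.8% ± 0.43 in Tg saline (SD, n = 12) against 11.96% ± 0.41 in WT saline (SD, n = 11; permutation test, adjusted p = 0.00204). Under Ang II it was 12.5% ± 0.24 in Tg (SD, n = 13) and 11.99% ± 0.33 in WT (SD, n = 14; permutation test, adjusted p = 0.00204). mt-Atp6 took 6.24% in Tg saline and 5.93% in WT saline (permutation test, adjusted p = 0.0270).

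Under Ang II the mt-Co1 portion was 34.5% in Tg and 35.5% in WT (permutation test, adjusted p = 0.0279). The mt-Nd4 and mt-Atp8 portions were above WT by 0.28 and 0.16 points (permutation test, adjusted p = 0.0328 and 0.0270). In all, 11 of the 68 tests of shares and ratios had an adjusted p under 0.05. Portions of mt-Atp6, mt-Nd4 and the other mRNAs with nuclear copies move with how shared reads were assigned, and that was not tested. mt-Nd1 and mt-Cytb have no such copy among the 7.

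**Figure D5:**
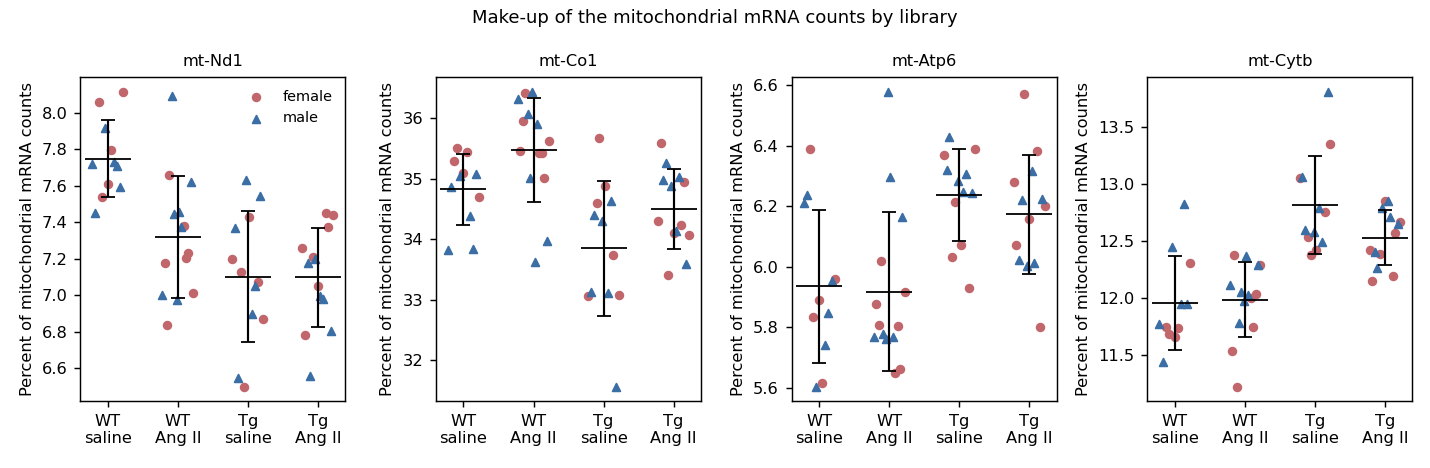
Percent of mitochondrial mRNA counts taken by mt-Nd1, mt-Co1, mt-Atp6 and mt-Cytb (y axes) in each library (circles female, triangles male), by genotype and treatment, with bars at the mean ± SD; the y axes do not start at 0. The mean of mt-Nd1 is 7.75% in WT saline and 7.10% in Tg saline, and that of mt-Cytb is 11.96% and 12.8%.

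Over both genotypes and treatments, 13 of 37 members were lower in females than in males and 0 were higher, where 2.56% of all genes were lower, 1.86% higher and 4.42% called in either direction. All 37 point estimates were below 0 with the main scaling, whereas 25 were with quantile normalization. The calls took in 10 tRNAs, led by mt-Td (aspartate, -0.52), mt-Tv (valine, -0.50), mt-Tk (lysine, -0.50), mt-Tg (-0.42) and mt-Tt (threonine, -0.40) on the log2 scale, and the mRNAs mt-Nd3 (-0.34), mt-Co3 (-0.16) and mt-Atp6 (-0.13). mt-Tv, mt-Td, mt-Tk and mt-Tg are among those that did not pass between genotypes. DESeq2 called 20, and 22 passed without WT Ang II male replicate 1. Tg saline male replicate 6 is among the males, and its mt-Nd3 was 4.02 times the median of the other Tg saline libraries. Its mt-Tg was at 2.80 times, mt-Tk at 2.10 and mt-Tt at 2.00. Under the alternatives other than a single sex, and without each library, 7 of the 13 calls were kept. These included mt-Tg, mt-Tk and mt-Tt but not mt-Nd3.

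Nuclear genes that serve the mitochondrial genome were read from lists drawn up by function, and their counts under saline stand beside 20.2% of all genes lower, 20.4% higher and 40.6% called in either direction. Of 8 tested genes for transcription of mitochondrial DNA, 3 were lower in Tg than in WT under saline and 0 higher: Top1mt, the mitochondrial topoisomerase (-0.48), Tfb2m, which lets the polymerase start (-0.25), and Mterf2 (-0.23). The list's median was -0.11. Polrmt, the polymerase itself, did not pass there but was lower in Tg under Ang II (-0.21; edgeR, adjusted p = 0.00065). Ang II in WT lowered Top1mt by 0.58 and Mterf2 by 0.18 on the log2 scale.

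Of 22 genes for cutting, tailing and decay of mitochondrial RNA, 8 were lower and 3 higher in Tg under saline, with a median of -0.06, against 40.6% of all genes called in either direction. The lower ones included Hsd17b10, a subunit of the mitochondrial RNase P that cuts tRNA 5′ ends (-0.38), Fastk, known for its part in the processing of mt-Nd6 (-0.35), Fastkd1 (-0.29) and Ptcd3, a mitochondrial ribosomal protein (-0.17). Of 8 genes that mature or modify the rRNAs or their ribosome, 3 were lower and 0 higher, Mettl17 (-0.34), Mettl15 (-0.29) and Mrm3 (-0.21), with a median of -0.17. Of 18 tRNA-charging genes 7 were lower and 1 higher, with a median of -0.11, so the number called in either direction was near the share over all genes. Those lower included Qrsl1 (-0.39), Cars2 (-0.35), Gatb (-0.30) and Fars2 (-0.26). Qrsl1 and Gatb are subunits of the enzyme that completes the charging of the glutamine tRNA.

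Of 12 genes for copying mitochondrial DNA, 3 were lower and 2 higher in Tg under saline, with a median of -0.06, so the list was called about as often as all genes tested (40.6%). Slc25a4, the main ADP/ATP carrier of heart (-0.38), Mgme1 (-0.23) and Polg, the DNA polymerase (-0.17), were lower, and Tk2, a thymidine kinase, was higher (0.26). Of 11 regulators of mitochondrial gene programmes, 3 were lower and 0 higher, Gabpb1 (-0.27), Perm1 (-0.16) and Gabpa (-0.15), with a median of -0.12. Ang II in WT lowered Mgme1 by 0.31 and Ppargc1b, a coactivator, by 0.38 on the log2 scale.

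The nuclear subunits that join the mitochondrial ones in each complex are set beside the same 20.2% of all genes lower and 20.4% higher in Tg under saline. In complex I, 10 of 36 were lower and 1 higher (median -0.07), with Ndufv1 at -0.26, Ndufv2 at -0.26 and Ndufa10 at -0.20. In complex III, 4 of 9 were lower and 1 higher (median -0.06), with Uqcrc1 at -0.32 and Uqcrfs1 at -0.31. In ATP synthase, 5 of 16 were lower and 0 higher (median -0.07), with Atp5c1 at -0.23 and Atp5a1 at -0.22. In complex IV, 0 of 11 passed (median 0.10), whereas all 3 of its mitochondrial subunits were lower.

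These counts rest in part on Tg saline male replicate 6. Against the median of the other Tg saline libraries its summed nuclear subunits stood at 1.74 times for complex I, 1.69 for complex III, 2.77 for complex IV and 1.37 for ATP synthase. Without it, 18 of 36 complex I genes were lower and 0 higher (median -0.17), where 19.4% of all genes were lower. Likewise without it, 4 of 9 complex III genes (median -0.17), 2 of 11 complex IV genes (median -0.09) and 6 of 16 ATP synthase genes (median -0.13) were lower and 0 were higher. The complex IV median thus changes sign with this library.

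Between genotypes under Ang II, where 16.4% of all genes were lower, 13 of 36 complex I genes (median -0.20), 5 of 9 complex III genes (median -0.16), 2 of 11 complex IV genes (median -0.15) and 8 of 16 ATP synthase genes (median -0.17) were lower in Tg, and 0 were higher. Those of complex IV were Cox7a1 (-0.44) and Cox4i1 (-0.25). Without Tg saline male replicate 6, which belongs to neither group compared here but enters the shared fit, 22, 6, 3 and 9 of them were lower.

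Cell type markers moved with the genotype under saline, where 20.2% of all genes were lower in Tg and 20.4% higher. Summed over 10 fibroblast markers, the level ran from 385 to 502 scaled FPKM in WT saline and from 495 to 750 in Tg saline, and 10 of 10 were higher in Tg. All 8 macrophage markers were higher, with sums of 97.2 to 126 in WT and 150 to 423 in Tg, and 8 of 10 endothelial markers were lower, with sums of 177 to 322 and 143 to 229. Of 12 cardiomyocyte markers 6 were lower and 1 higher, with sums of 21671 to 25036 in WT and 19792 to 25035 in Tg. The highest Tg sum was that of Tg saline male replicate 6, and the others ran from 19792 to 22300. Without that library 7 of the 12 were lower and 1 higher. Of 8 mural cell markers 5 were lower and 2 higher, and without it 4 were lower and 2 higher. Of 5 red blood cell markers 0 passed. Summed atrial markers stayed at or below 1.17 and lymphocyte markers at or below 1.42 in every group. Between genotypes under Ang II, 16.4% of all genes were lower in Tg and 16.4% higher. In that comparison 7 of 10 fibroblast and 6 of 8 macrophage markers were higher in Tg, and 8 of 10 endothelial markers were lower. Of 12 cardiomyocyte markers 7 were lower and 1 higher, and of 8 mural cell markers 4 were lower and 2 higher. Ang II in WT came with 4 fibroblast markers higher and 1 lower of 10, and 0 lower and 2 higher of the 12 cardiomyocyte markers. Over all genes 8.87% fell and 9.71% rose with Ang II in WT. No marker in these lists was at 0 in every library. The part of these cell types in the differences of the mitochondrial transcripts was not tested.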

How the data were processed

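Gene counts and FPKM values of 50 left ventricle libraries were used as deposited by the authors in a single table, with every per-sample column matched to a sample (0 left over). Per the labels' protocols, RNA was selected with oligo(dT) and made into strand-keeping paired-end libraries. Per the submitters' processing notes, the tools included cutadapt 1.9, FastQC, HISAT2 2.0.4 and StringTie 1.3.4d. The tool that made the deposited counts, its strand setting and the genome build are not given in the sources used here, and positions of all 37 members equal those of GENCODE M21 on GRCm38. The FPKM values are the authors' own, and scaled FPKM divides them by a median-of-ratios factor of 0.778 to 1.14 per library.

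Counts of genes with at least 1 FPKM in at least 5 libraries were tested with edgeR 4.0.16 (R 4.3.3) by its quasi-likelihood test, with median-of-ratios scaling, 8 cell means of genotype, treatment and sex, sexes weighted equally, and Benjamini-Hochberg adjustment over all genes tested. The fit was tested on simulated data. Shares and ratios were compared by 2-sided permutation tests (1e+05 resamples) with females and males joined, adjusted over 68 tests. An alternative permuted within each sex. Alternatives were TMM, library size alone or without mitochondrial counts, other filters, DESeq2 1.42.0, limma 3.58.1 on log2(FPKM + 1), a block for runs of library numbers, each sex alone, and leaving out libraries. Chosen after seeing the data were the alternatives that treat the nuclear copies apart, quantile normalization and the counts of nuclear lists without Tg saline male replicate 6.

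All mRNAs and rRNAs are named, tRNAs where they pass or differ in strand, and from each nuclear list up to 4 genes with the smallest p in the saline genotype comparison and in Ang II against saline in WT. Polrmt, Cox7a1 and Cox4i1 under Ang II were picked with their values in view. An item that the rule would name is not reported here. The members and lists were chosen with earlier results of these data known. Sequences were read from the GENCODE M21 transcripts. Anticodons were picked as a triplet that reads the amino acid of the tRNA's name, in a loop closed by a stem. In 21 of 22 tRNAs such a triplet was found.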

Additional observations from a re-analysis of the deposited data

Results flagged for a closer look

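Within the 8 groups of genotype, treatment and sex, 11 values of single libraries lay farther from the rest of their group than Dixon's 95% critical value, out of 328 groups of values checked, and chance alone flags about 1 in 20. Values are log2 scaled FPKM. In Tg saline male replicate 6, mt-Nd3 was 13.04 where the other males of its group ran from 11.07 to 11.49, and mt-Th was 3.996 where they ran from 4.71 to 5.08. In WT Ang II male replicate 1, mt-Tf was 2.15 and mt-Td was 5.65, below the others' lowest values of 3.36 and 6.40. In WT saline male replicate 1, the neighbouring minus-strand tRNAs mt-Ta and mt-Tn were 10.19 and 10.27, below the others' lowest values of 10.47 and 10.56. In WT saline females, mt-Tf was 3.58 in replicate 2, above the others' highest of 3.17, and mt-Td was 5.68 in replicate 3, below their lowest of 6.05. In WT Ang II female replicate 7, mt-Ti was 8.44, below the others' lowest of 9.11. In Tg Ang II females, mt-Nd5 was 13.84 in replicate 6, above the others' highest of 13.59, and mt-Tp was 8.57 in replicate 3, below their lowest of 8.75.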

How the results depend on the processing

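No paired analysis was possible because the labels give no number that joins libraries of different groups. No alternative called a member higher in any comparison. Under the saline genotype comparison, 17 members passed in females alone, 9 in males alone, 12 with quantile normalization and 19 with a block for runs of library numbers. The groups were spread unevenly over these runs, which the permutation tests of shares and ratios did not take into account. For Ang II in WT, 5 passed with no filter, 5 with a block for runs of library numbers, 0 in females alone, 2 in males alone and 13 when library size left out mitochondrial counts and their nuclear copies. For Ang II in Tg, 0 passed with the filter on counts, 0 with no filter, 0 in females alone, 1 in males alone, 1 with limma and 1 without the libraries whose headings go against their labels. For the genotypes under Ang II, 9 passed in females alone, 5 in males alone and 4 with quantile normalization. For sex, DESeq2 called 20 and quantile normalization left 7. Fewer libraries enter each fit of 1 sex, and the causes of the other changes were not tested.

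Leaving out each library in turn gave 21 to 29 calls for genotype under saline, 5 to 18 for Ang II in WT, 0 to 3 for Ang II in Tg, 11 to 18 for genotype under Ang II, 0 to 0 for the difference of responses and 9 to 22 for sex. The Ang II difference in the mitochondrial share in WT ran from -2.77 to -2.09 points, and was -2.96 with the nuclear copies. The genotype difference in that share under Ang II was -1.77 with FPKM. The genotype difference in the log2 ratio of rRNA to mRNA under Ang II was -0.22 without the libraries whose headings go against their labels.

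On the log2 scale, quantile normalization turned the sign, without a call, of mt-Co2 (0.013), mt-Atp8 (0.044), mt-Co3 (0.016) and mt-Nd4 (0.042) between genotypes under saline, of mt-Atp6 (0.012) for Ang II in WT, of mt-Tl1 (0.021), mt-Nd2 (0.054) and mt-Co3 (0.0045) between genotypes under Ang II, and of mt-Atp6 (0.010) for sex. mt-Nd3 between genotypes under saline ran from -0.23 to 0.074 with 1 library left out and was -0.29 in females alone, and for Ang II in Tg it was 0.019 in females alone. Calls kept under the 11 alternatives other than a single sex, and without each of the 50 libraries, were 7 of 27 under saline (mt-Rnr1, mt-Nd1, mt-Ti, mt-Ts1, mt-Th, mt-Ts2 and mt-Tp), 3 of 8 for Ang II in WT (mt-Tq, mt-Tm and mt-Th), 0 of 3 for Ang II in Tg, 4 of 15 under Ang II (mt-Rnr1, mt-Ti, mt-Ts1 and mt-Tp) and 7 of 13 for sex. Those 11 include quantile normalization, which holds mt-Co1 and mt-Cytb at 0, so neither could be kept whatever its difference. It also largely removes a fall shared by the other mRNAs of high FPKM, so their lost calls and turned signs under it cannot decide whether they fell together. Depth limits the rarest tRNAs, such as mt-Tf at a mean of 50.9 counts, most.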
